A study of Mus musculus with 16 samples.

Results

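GABA-A receptor subunit genes were followed in the cortex of mouse pups at P7. Of the 19 GABA-A receptor subunit genes listed in the table, 7 were selected by their symbols: Gabra2, Gabra3, Gabra4, Gabra5, Gabrb1, Gabrb2 and Gabrd. They are 7 of 36930 entries of the table, and all 7 passed the filter on low values that left 21183 genes. Gabra2, Gabra3 and Gabra5 were taken as neonatal subunits, and Gabra4, Gabrb2 and Gabrd as mature subunits, whereas Gabrb1 was put in neither set.

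RNA was sequenced from whole cortices of 8 Avil-ChR2 and 8 ChR2-flfl pups of C57BL6 background. In Avil-ChR2 pups, Cre recombinase under the promoter of advillin (Avil), a gene of peripheral sensory neurons, releases the expression of a fusion of the blue light gated channel channelrhodopsin-2 with td-Tomato. ChR2-flfl pups carry the same floxed construct without Cre and are therefore light insensitive. Pups of both genotypes received blue light for 1 h daily on postnatal days 1 to 5, and cortices were taken at 7 days of age, so that no group without light is part of the comparison. The neurons meant to be targeted are peripheral and lie outside the cortex, but Avil RNA in the cortex itself was higher in Avil-ChR2 pups, as given below. The pups carry numbers from 26 to 33 and from 35 to 42, and each of these runs holds 4 pups per genotype. Litters are not named in the labels.

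GABA-A receptors are chloride channels built from several subunits and carry most of the fast inhibition in the cortex. Alpha and beta subunits form the GABA binding site, and a further subunit such as delta completes the channel. During postnatal development the mixture of subunits changes: receptors with the products of Gabra2, Gabra3 and Gabra5 prevail in the immature cortex, whereas Gabra4, Gabrb2 and Gabrd become more abundant as circuits mature.

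The alpha subunits differ in a codon of the benzodiazepine site, which is shown here because it separates the mature Gabra4 from the neonatal alpha subunits in sequence. The stretches of 51 coding bases were read from GENCODE transcripts on GRCm38 and are written 5′ to 3′ on the coding strand, with the codon in capitals.
Gabra2: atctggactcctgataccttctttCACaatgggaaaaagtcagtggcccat
Gabra3: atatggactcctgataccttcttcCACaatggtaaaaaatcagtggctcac
Gabra5: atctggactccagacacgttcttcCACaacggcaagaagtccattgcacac
Gabra4: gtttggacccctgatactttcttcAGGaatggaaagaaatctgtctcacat
The codon reads histidine in Gabra2, Gabra3 and Gabra5, whose receptors bind classical benzodiazepines, and arginine in Gabra4, whose receptors do not. Compared with Gabra2, 45 bases were identical in Gabra3, 39 in Gabra5 and 36 in Gabra4. All of them lie on the minus strand within 1 coding exon, at chr5:71014481-71014531 in exon 5 of 10 for Gabra2, chrX:72501144-72501194 in exon 5 of 10 for Gabra3, chr7:57488867-57488917 in exon 5 of 10 for Gabra5 and chr5:71641128-71641178 in exon 4 of 9 for Gabra4.

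The depth lay between 30549126 and 48711134 reads per pup, with the lowest value in ChR2-flfl replicate 3. Avil, which served to check the genotypes, ranged from 0.825 to 1.46 normalized reads (CPM, read counts divided by the library size after scaling with TMM factors) in ChR2-flfl pups and from 37.3 to 46.4 CPM in Avil-ChR2 pups. The source of this Avil RNA in the cortex was not tested. The sex labels differed between sources for 1 pup, Avil-ChR2 replicate 4. In this pup, labelled female, Ddx3y, Eif2s3y, Kdm5d and Uty were at the level of males, and Xist had no value in 14 of 16 pups, so that it could not serve as a check. Of 56 marker genes in 11 lists, 7 had a mean under 1 CPM, in the lists for thalamus, hippocampus, cerebellum and choroid plexus. Other markers of these lists were expressed. In ChR2-flfl pups the lists summed to 76.3 to 93.8 CPM for thalamus, 72.8 to 79.0 CPM for hippocampus and 47.0 to 58.0 CPM for cerebellum. Choroid plexus summed to 2.47 to 5.32 CPM, and striatum, with no marker under 1 CPM, to 62.9 to 81.1 CPM. All 7 markers of cortical excitatory neurons were present, with a summed level of 1197 to 1299 CPM in ChR2-flfl and 1218 to 1350 CPM in Avil-ChR2 pups. The summed level of the 6 interneuron markers was 286 to 343 CPM in ChR2-flfl and 307 to 366 CPM in Avil-ChR2 pups. No list had a p under 0.05 between genotypes (two-sided exact permutation test, lowest p = 0.0533 for excitatory neurons).

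Subunits differed much more from each other than between genotypes. Levels of different genes were compared per length, as CPM per kb of the longest annotated transcript, in the 8 ChR2-flfl pups. Gabrb2, a beta subunit of mature receptors, was highest with 80.2 ± 4.86 CPM per kb (SD, n = 8). It was followed by Gabra5, the alpha subunit of many extrasynaptic receptors, with 57.2 ± 1.21 CPM per kb, and by Gabra3, which is abundant in the newborn cortex, with 43.5 ± 2.12 CPM per kb. Of the neonatal alpha subunits, Gabra5 and Gabra3 were thus above the mature Gabra4, which had 18.3 ± 1.63 CPM per kb. Gabra2, also neonatal, was below Gabra4 and lowest of the subunits, so that the neonatal subunits were not all above the mature ones. Gabrb1 was at 11.6 ± 0.578, Gabrd at 5.75 ± 0.807 and Gabra2 at 4.40 ± 0.373 CPM per kb.

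The order was taken from the means of these same pups, so that the direction of each neighbouring pair was set in advance. The p-values therefore describe the spread between pups only, and not the error of the assumed transcript lengths. The first 5 of the 6 neighbouring pairs had the same direction in 8 of 8 pups (two-sided exact sign-flip test, p = 0.00781, the smallest that 8 pups allow, and adjusted p = 0.00937 over 6 pairs). The closest pair was Gabrd and Gabra2, where Gabrd was higher in 7 of 8 pups, by 1.30-fold (exact p = 0.0234, adjusted p = 0.0234). The order was the same in the Avil-ChR2 pups and with the mean length of the protein-coding transcripts. With these mean lengths, Gabra5 was only 1.05-fold above Gabra3. Gabrb1 has the longest transcript, 13737 bases, so that its place depends on how much of that length was expressed.

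**Figure D1:**
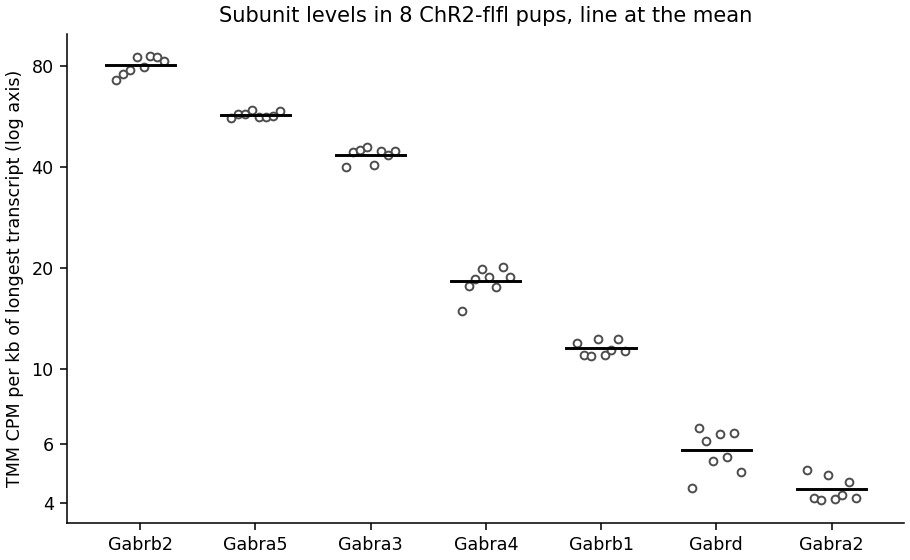
Levels of the 7 subunits in the ChR2-flfl pups, as CPM per kb of the longest transcript on a log axis, ordered from highest to lowest. Each circle is 1 of 8 pups and the line is the mean. Only the points of Gabrd and Gabra2 overlap between neighbours, with Gabrd between 4.45 and 6.70 and Gabra2 between 4.08 and 5.02.

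Among the 4 alpha subunits, summed as CPM per kb, Gabra5 made up 46.4 ± 0.919% in ChR2-flfl and 47.2 ± 1.62% in Avil-ChR2 pups (SD, n = 8). Gabra3 followed with 35.2 ± 0.806% and 34.2 ± 1.45%. The alpha subunits kept the same order in both genotypes. The share of the mature Gabra4 was 14.8 ± 0.998% in ChR2-flfl and 15.1 ± 0.763% in Avil-ChR2 pups, and that of Gabra2 was 3.57 ± 0.353% and 3.46 ± 0.197%. Of the 2 beta subunits, Gabrb2 made up 87.4 ± 0.731% in ChR2-flfl and 87.9 ± 0.694% in Avil-ChR2 pups. These are shares of the members only, since other subunit genes are not in the sums.

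The comparison of genotypes asked whether the subunits of the inhibitory receptor differed after blue light that was meant to activate sensory neurons of Avil-ChR2 pups only. Since both genotypes received light, an effect of light activation and one of the transgenes cannot be told apart. None of the 7 subunits passed an adjusted p of 0.05 (limma, Benjamini-Hochberg over 21183 genes, lowest adjusted p = 0.841), against 0.00944% of all genes. At an unadjusted p of 0.05, 1 of 7 subunits passed, against 5.41% of all genes. Log2 differences ranged from -0.087 for Gabrb1 to 0.15 for Gabrd, with 4 subunits lower and 3 higher in Avil-ChR2 pups. The median of the absolute log2 difference was 0.034 for the subunits and 0.051 for all genes. These medians are not matched for level, since all genes include those of low level. The lowest subunit, Gabrd, had a mean log2 value of 4.02 over all pups. In whole cortex, fewer cells of a type and less RNA per cell cannot be told apart.

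**Figure D2:**
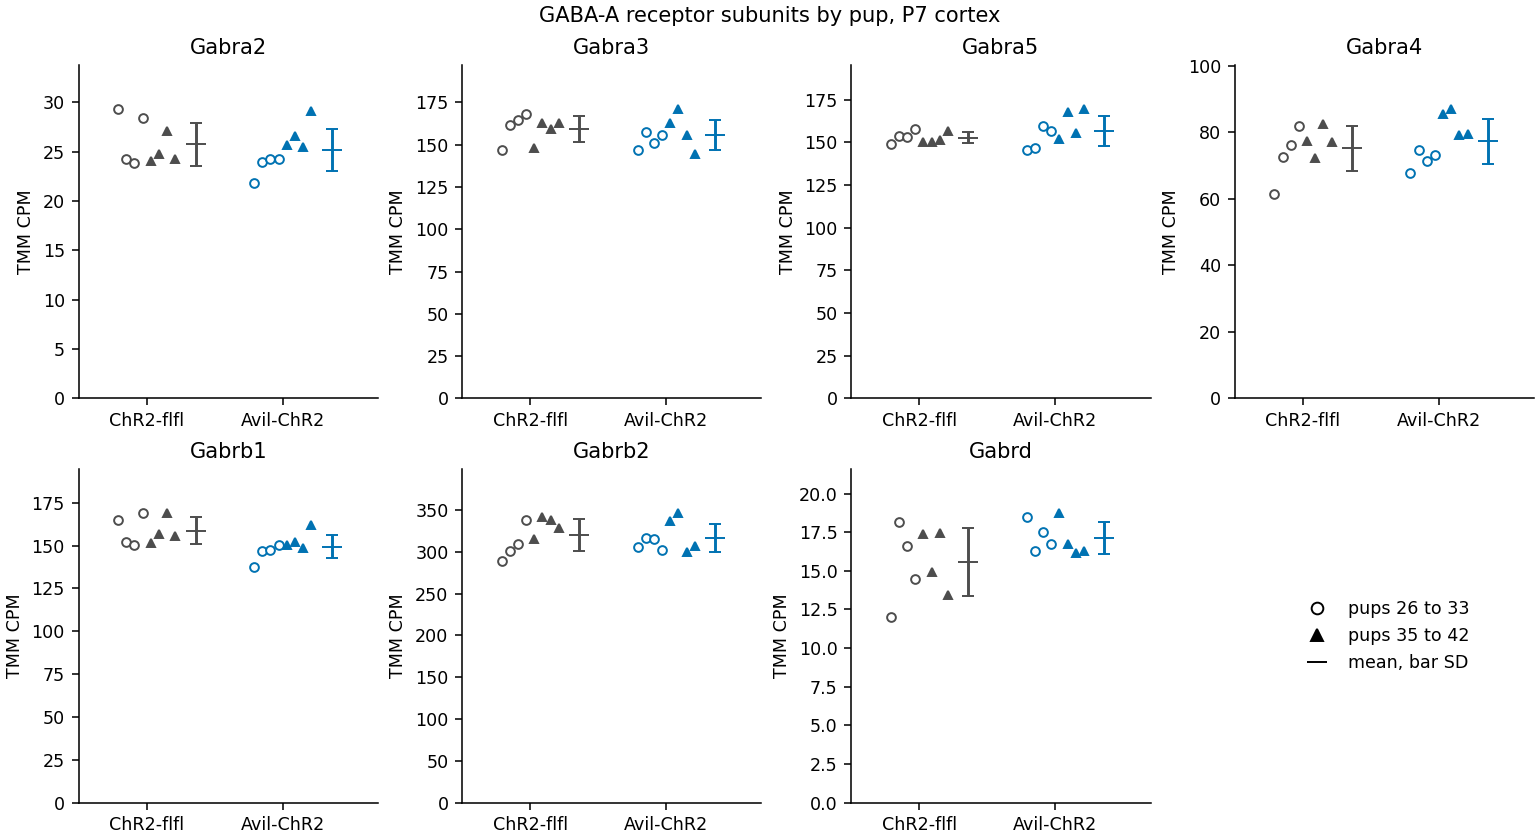
CPM of each subunit in every pup, with the vertical axes starting at 0. Open circles are pups 26 to 33 and filled triangles pups 35 to 42, and the line with its bar is the mean with the SD of 8 pups. The genotypes overlap for all 7 subunits, with Gabrb1 lower in 7 of 8 and Gabrd higher in 8 of 8 Avil-ChR2 pups than the ChR2-flfl mean.

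The neonatal alpha subunits overlapped between genotypes. Gabra2, a subunit of synaptic receptors, had a lowest value of 23.9, a median of 24.5 and a highest value of 29.4 CPM in ChR2-flfl pups, and 21.9, 24.9 and 29.1 CPM in Avil-ChR2 pups. The highest values came from ChR2-flfl replicate 1 and Avil-ChR2 replicate 8, so that each genotype held a pup near the top of the range. The log2 difference was -0.034 ± 0.056 (SE, limma, adjusted p = 0.984; exact permutation p = 0.576), with a 95% interval from -9.89% to 5.83%.

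Gabra3 is encoded on the X chromosome. Its lowest, median and highest values were 147, 162 and 168 CPM in ChR2-flfl pups and 145, 156 and 171 CPM in Avil-ChR2 pups. Both extremes of all 16 pups were in the Avil-ChR2 group. On the log2 scale, genotypes differed by -0.033 ± 0.036 (SE, limma, adjusted p = 0.966; exact permutation p = 0.386), which corresponds to an interval from -7.27% to 2.95%.

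Gabra5, a subunit of receptors that carry tonic inhibition in the developing cortex and hippocampus, varied least among ChR2-flfl pups. It had 149, 152 and 158 CPM as lowest, median and highest value in ChR2-flfl and 145, 156 and 170 CPM in Avil-ChR2 pups. Of the Avil-ChR2 pups, 3 lay above and 2 below all ChR2-flfl pups, so that the values of this genotype spread to both sides. The log2 difference was 0.034 ± 0.031 (SE, limma, adjusted p = 0.954; exact permutation p = 0.294), with an interval from -2.12% to 7.10%.

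Gabra4, the mature alpha subunit of extrasynaptic receptors, pairs with delta in many neurons. Lowest, median and highest values were 61.4, 76.7 and 82.6 CPM in ChR2-flfl pups and 67.9, 77.0 and 87.2 CPM in Avil-ChR2 pups. The lowest pup was ChR2-flfl replicate 1, and the 2 highest were Avil-ChR2 pups of the later run. For this gene the log2 difference was 0.041 ± 0.058 (SE, limma, adjusted p = 0.981; exact permutation p = 0.551), and without ChR2-flfl replicate 1 it was -0.00015.

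The beta subunits form the interface with the alpha subunits at which GABA binds. For Gabrb2, lowest, median and highest values were 289, 322 and 341 CPM in ChR2-flfl pups and 300.3, 311 and 347 CPM in Avil-ChR2 pups. The ranges almost coincided. The log2 difference was -0.016 ± 0.039 (SE, limma, adjusted p = 0.986; exact permutation p = 0.688), with an interval from -6.48% to 4.53%.

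Gabrb1 was the subunit with the lowest p. In ChR2-flfl pups 1 to 8 it had 165, 152, 150.4, 169, 151, 157, 169 and 156 CPM, and in Avil-ChR2 pups 1 to 8 it had 137, 147, 147, 150.3, 150.3, 152, 149 and 162 CPM. Of the Avil-ChR2 pups, 6 were below all ChR2-flfl pups, and only replicate 8 exceeded the ChR2-flfl mean. The means were 159 ± 7.94 CPM in ChR2-flfl and 149 ± 6.90 CPM in Avil-ChR2 pups (SD, n = 8). On the log2 scale, genotypes differed by -0.087 ± 0.034 (SE, limma, unadjusted p = 0.0183, adjusted p = 0.841; exact permutation p = 0.028), or 5.83% lower with an interval from -10.3% to -1.12%. It did not pass the adjustment over all genes. With every single pup left out in turn the limma unadjusted p stayed between 0.00466 and 0.0454. Within pups 26 to 33 the genotypes differed by -0.13 on the log2 scale, and within pups 35 to 42 by -0.045.

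Gabrb1 has the longest genomic span of the 7 subunits, 491517 bp. A per-pup slope of log2 values on genomic span, which describes whether long genes are high or low in a pup, had a mean of 0.0152 ± 0.0344 in ChR2-flfl and -0.0152 ± 0.0243 log2 per 10-fold span in Avil-ChR2 pups (SD, n = 8, exact permutation p = 0.057). With this slope as a covariate the Gabrb1 difference was -0.039 (limma, unadjusted p = 0.22) in place of -0.087. Gabra2 and Gabrb2 turned from lower to higher under the same covariate, to log2 differences of 0.040 and 0.040, and Gabra4 went from 0.041 to 0.10. The Gabrd difference fell from 0.15 to 0.10 (limma, unadjusted p = 0.22). None of these passed an adjusted p of 0.05.

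Gabrd encodes delta, which is found mainly in extrasynaptic receptors with high affinity for GABA. In ChR2-flfl pups 1 to 8 it had 12.04, 18.1, 16.6, 14.5, 17.4, 14.9, 17.5 and 13.4 CPM, and in Avil-ChR2 pups 1 to 8 it had 18.5, 16.3, 17.5, 16.7, 18.8, 16.8, 16.1 and 16.3 CPM. The ChR2-flfl mean was exceeded by all 8 Avil-ChR2 pups, and 4 ChR2-flfl pups were below all Avil-ChR2 pups, but the upper ranges overlapped. The means were 15.6 ± 2.18 and 17.1 ± 1.02 CPM (SD, n = 8). The log2 difference was 0.15 ± 0.072 (SE, limma, unadjusted p = 0.055, adjusted p = 0.911; exact permutation p = 0.0836), with an interval from -0.242% to 23.0%. Without ChR2-flfl replicate 1 it was 0.097.

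**Figure D3:**
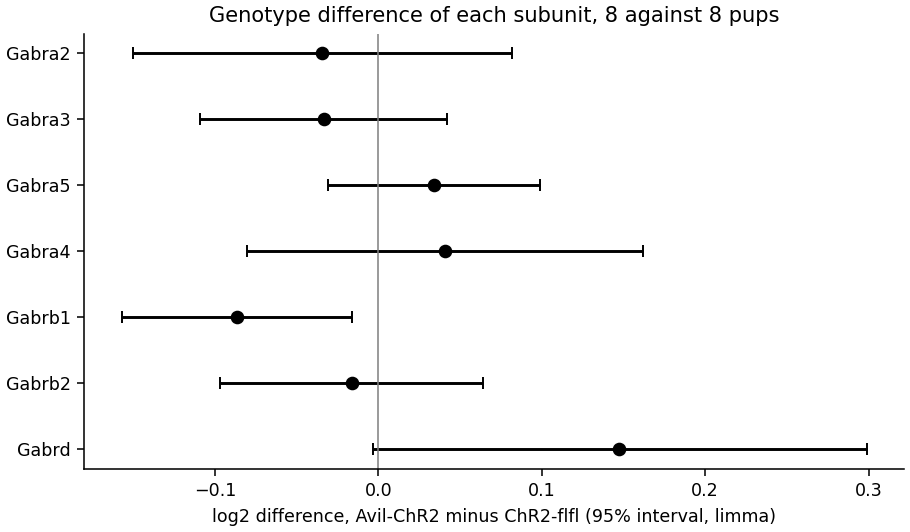
Log2 difference of each subunit between 8 Avil-ChR2 and 8 ChR2-flfl pups, with the 95% interval from limma. The interval of Gabrb1, from -0.16 to -0.016, does not include 0, and those of the other 6 subunits do.

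To compare mature with neonatal subunits, the mean log2 value of Gabra2, Gabra3 and Gabra5 was subtracted from that of Gabrb2, Gabra4 and Gabrd in each pup. These values were not divided by transcript length, so that the sign of the balance does not rank the sets per length. The balance was -0.25 ± 0.13 in ChR2-flfl and -0.18 ± 0.069 in Avil-ChR2 pups (SD, n = 8). Its lowest, median and highest values were -0.53, -0.22 and -0.11 in ChR2-flfl and -0.28, -0.19 and -0.078 in Avil-ChR2 pups. Except for the lowest pup, ChR2-flfl replicate 1, the ranges were similar. The genotype difference of 0.069 was about the SD of the Avil-ChR2 pups and below that of the ChR2-flfl pups, and without ChR2-flfl replicate 1 it was 0.029. Within pups 26 to 33 it was 0.14, and within pups 35 to 42 it was -0.0019. Taken separately, the mean log2 value of the mature subunits differed by 0.057 between genotypes and that of the neonatal subunits by -0.011.

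**Figure D4:**
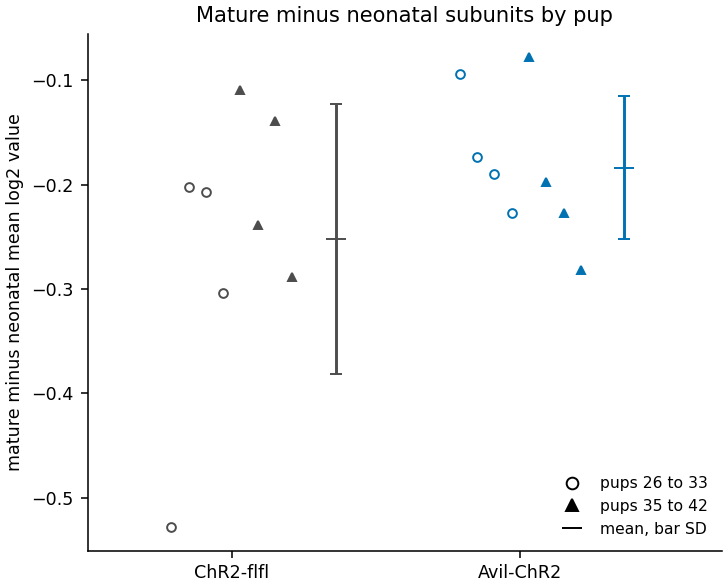
Mean log2 value of the mature subunits minus that of the neonatal subunits in each pup, with the mean and SD of each genotype. Open circles are pups 26 to 33 and filled triangles pups 35 to 42. ChR2-flfl replicate 1 lies at -0.53, and all other pups between -0.30 and -0.078.

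Between the runs of pup numbers, the lowest unadjusted p among the subunits was that of Gabra4. It was at 72.4 ± 5.99 CPM in pups 26 to 33 and 80.2 ± 4.82 CPM in pups 35 to 42 (SD, n = 8), a log2 difference of 0.15 ± 0.048 (SE, limma, unadjusted p = 0.00582, adjusted p = 0.198). Gabrb2 had 309.7 ± 14.4 and 327 ± 17.1 CPM, a log2 difference of 0.077 ± 0.035 (SE, limma, unadjusted p = 0.039, adjusted p = 0.367). No subunit passed the adjusted p, against 0.123% of all genes. At an unadjusted p of 0.05, 2 of 7 subunits passed, against 12.5% of all genes. Whether a run is a litter or a day of preparation is not given in the labels.

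The genotype difference depended on the run for Gabra2 alone at an unadjusted p of 0.05, or 1 of 7 subunits against 3.04% of all genes. In pups 26 to 33, Gabra2 had a mean of 26.5 ± 2.81 CPM in ChR2-flfl and 23.6 ± 1.18 CPM in Avil-ChR2 pups (SD, n = 4). In pups 35 to 42, the order was inverted, with 25.0 ± 1.37 CPM in ChR2-flfl and 26.7 ± 1.68 CPM in Avil-ChR2 pups. The interaction was 0.25 ± 0.097 on the log2 scale (SE, limma, unadjusted p = 0.0181), but its adjusted p was 0.9998 and it was not called.

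Sex was compared with both sources, the sample labels and a list of pups supplied with the study, which gives Avil-ChR2 replicate 4 as male. In this pup Ddx3y, Eif2s3y, Kdm5d and Uty were at the level of males, as given above, unlike its sample label. With the sex of the sample labels, 0 of 7 subunits had an unadjusted limma p under 0.05 for females against males, against 4.46% of all genes, and with the other source 0 of 7 against 3.46%. For the genotype by sex interaction, 0 of 7 subunits passed an unadjusted limma p of 0.05 with the sample labels, against 4.31% of all genes, and 0 of 7 with the other source, against 6.23%. The lowest p was that of the X-linked Gabra3, whose interaction was -0.13 on the log2 scale with either source. Its limma unadjusted p was 0.0889 with the sample labels (adjusted p = 0.993) and 0.0846 with the other source (adjusted p = 0.841).

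Relations between subunits over the 16 pups were calculated from deviations from the genotype means, for 21 pairs. The closest pair was Gabra2 and Gabrb1, with a Pearson r of 0.931 and a Spearman rho of 0.956 (permutation test with 100000 resamples, p = 1e-05 for both, the smallest it can give; adjusted p = 0.00021 over 21 pairs). The r was 0.933 without the 2 pups farthest from the median of Gabra2, 0.935 in pups 26 to 33 and 0.920 in pups 35 to 42. It was 0.889 after removal of the slope on genomic span from both genes. Gabra2 and Gabrb1 were high together in ChR2-flfl replicates 1, 4 and 7 and in Avil-ChR2 replicate 8, and both were lowest in Avil-ChR2 replicate 1.

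Gabra2, Gabra4 and Gabrb1 are neighbours on chromosome 5, in the table at 70961037 to 71095849, 71569729 to 71658308 and 71658056 to 72149572 on GRCm38. The other members lie on separate chromosomes, Gabra5 on chromosome 7 (57407669 to 57510100), Gabrb2 on chromosome 11 (42419757 to 42632591), Gabrd on chromosome 4 (155384979 to 155398129) and Gabra3 on chromosome X (72432676 to 72656678). Gabra4 lies between Gabra2 and Gabrb1, and its listed span overlaps that of Gabrb1 on the opposite strand by 253 bp. Gabra4 had an r of 0.218 with Gabra2 (permutation p = 0.42), although it is the nearer neighbour. Without the 2 pups farthest from the median of Gabra2 that r was 0.796, so that it rests on few pups. For the 66 genes other than Gabrb1 that start within 10 Mb of Gabra2 and have a mean log2 of 2 or more, r over 16 pups ranged from -0.624 to 0.637 with a median of 0.0753. These genes share library and depth with Gabra2 and are given as a description.

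**Figure D5:**
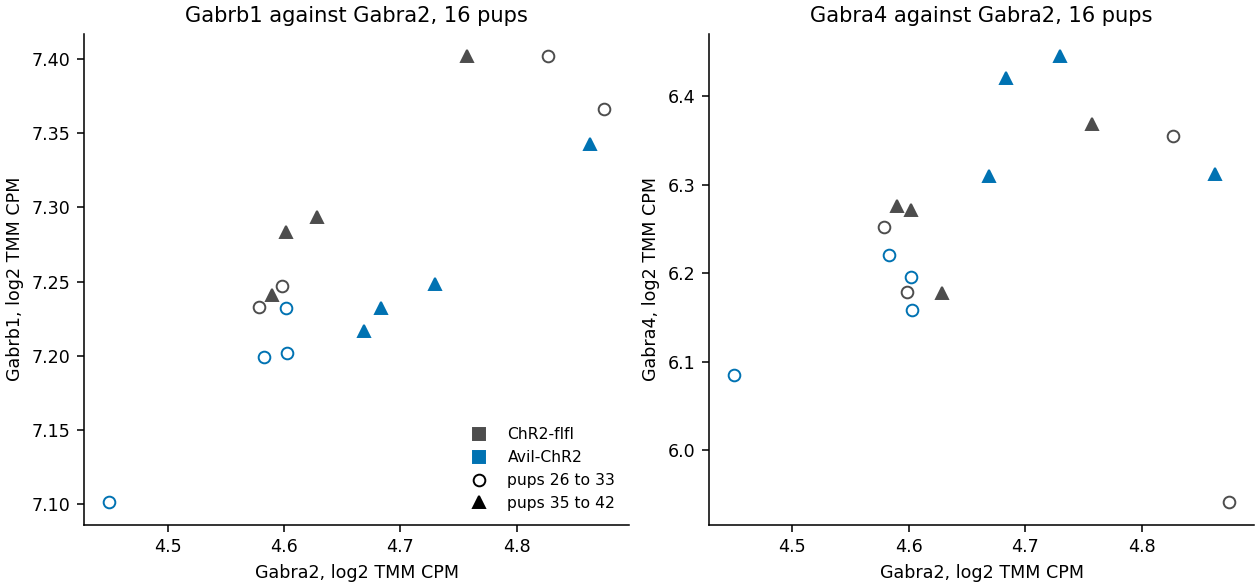
Log2 CPM of Gabrb1 (left) and of Gabra4 (right) against Gabra2 in 16 pups. Gray are ChR2-flfl and blue Avil-ChR2 pups, open circles are pups 26 to 33 and filled triangles pups 35 to 42. Gabrb1 rises with Gabra2 in both genotypes (r = 0.931), whereas for Gabra4 the pup with the highest Gabra2, ChR2-flfl replicate 1, has the lowest value (r = 0.218).

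The mature subunits Gabra4 and Gabrb2 also varied together, with an r of 0.720 (permutation p = 0.00172, adjusted p = 0.0181 over 21 pairs), but rho was 0.621 (adjusted p = 0.134). Within pups 26 to 33 the r was 0.757 and within pups 35 to 42 it was 0.439. Gabra3, counted as neonatal, had an r of 0.665 with Gabrb2 (adjusted permutation p = 0.0381) and 0.639 with Gabra4 (adjusted permutation p = 0.0398). Without the 2 pups farthest from the median of Gabra3 these were 0.436 and 0.395, so that both rest on few pups, and the adjusted p of rho was 0.215 and 0.247. With the neonatal Gabra2, Gabra3 had an r of -0.0344 (permutation p = 0.9), which was 0.639 without the 2 pups farthest from the median of Gabra2. By rho, Gabra2 and Gabrb1 were the only pair of the 21 with an adjusted p under 0.05.

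Of 12524 genes whose mean log2 was 2 or more, the one most like Gabra2 over the 16 pups was Gabrb1, and the one most like Gabrb1 was Gabra2. The next was Oma1 (r = 0.916) for Gabra2 and Dgka (r = 0.848) for Gabrb1. Gabra3 was most like Dcun1d4 (r = 0.935) and Pdha1 (r = 0.930), and Gabra4 most like Hapln1 (r = 0.947), a link protein of the extracellular matrix, and Rgs7bp (r = 0.935). For Gabra5 the genes were Fam149a (r = 0.867) and Rspo2 (r = 0.831), and for Gabrb2 they were Pja2 (r = 0.976) and Ccdc132 (r = 0.951). Gabrd was most like App (r = 0.904), the amyloid precursor, and Klf9 (r = 0.874). These are descriptions over 16 pups, chosen as the highest of many.

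The 12 other subunit genes of the table are given as a group. Of these, 10 were tested, and 0 had an adjusted or unadjusted limma p under 0.05, against 0.00944% and 5.41% of all genes. The lowest unadjusted limma p was 0.204. The 7 whose mean log2 was 0 or more had log2 differences from -0.091 to 0.017 with a median of -0.014, against 0.0020 for all genes.

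Genes that act with the receptors were taken from 2 lists. Of 20 genes for receptor clustering, assembly and trafficking, 19 were tested. None passed an adjusted or unadjusted limma p of 0.05 (lowest unadjusted p = 0.0667), against 0.00944% and 5.41% of all genes. Of the 19, 12 were higher and 7 lower in Avil-ChR2 pups, with a median log2 difference of 0.015. Of 12 genes for GABA synthesis, transport and breakdown, chloride transport and GABA-B receptors, all were tested. Here 0 passed an adjusted or unadjusted limma p of 0.05, against the same shares of all genes. The lowest unadjusted p from limma in this list was 0.0768. In this list 11 were higher and 1 lower in Avil-ChR2 pups, with a median log2 difference of 0.036 and a range from -0.037 to 0.064. The median over all genes was 0.0020, and the share of all genes that were higher was not calculated. Genes of a list were measured in the same pups, so that their directions are not independent. The summed levels of the marker lists, of which none had an exact permutation p under 0.05, had log2 differences of 0.047 for excitatory neurons, 0.056 for interneurons, 0.066 for astrocytes, 0.046 for microglia, 0.039 for the oligodendrocyte lineage and 0.13 for choroid plexus. The other 5 lists lay between -0.023 and 0.018. The part of these cell types in the values was not tested.

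The lowest number of reads of any subunit in a pup was 514, for Gabrd. Median reads per pup ranged from 795 for Gabrd and 1186 for Gabra2 to 15262 for Gabrb2. Counting error alone gives a coefficient of variation of 3.55% for Gabrd and 0.809% for Gabrb2, whereas the variation within genotypes was 10.8% and 5.71%. For all 7 subunits the spread between pups was 2.92 to 7.05 times the counting error. Gabra4 and Gabrb1 overlap each other on opposite strands by 253 bp, and the CPM of Gabrb1, which scale with the reads and not with length, were 202% of those of Gabra4. Other entries on the opposite strand overlap Gabra5 and Gabrb2 and reached 8.53% and 0.0226% of their CPM. The library kit keeps the strand, but it is not stated whether reads were counted by strand.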

How the data were processed

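Per the labels and the study's methods, the authors prepared libraries from 1 µg of total RNA, used SeqMan NGen to align reads (minimum length 50 bp) to the mouse genome mm10, GRCm38, obtained gene counts in ArrayStar and scaled the counts to CPM with TMM factors of edgeR. The deposited values are CPM on a linear scale with decimal commas. Values below -5 on the log2 scale or missing were set to -5, which applied to 4432 values, and genes needed 12 of 16 pups above -5. All values of up to 20000 reads were whole multiples of 1 read within 0.05, which gave the reads per pup. Intervals from depth cover counting error only.

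Genotypes, runs and sex were compared with limma 3.58.1 in R 4.3.3 (intensity trend, Benjamini-Hochberg adjustment), and single genes with two-sided exact permutation tests over 12870 splits (Python 3.11.15, scipy 1.17.1). Neighbouring levels were compared by exact sign flips over 256 assignments. Scripts were tested on simulated data. The members and lists were chosen with earlier results of these data known. Named genes were the members, listed genes with an unadjusted p under 0.05, the 2 genes most like each member, and Avil and sex genes as checks. The 12 other subunit genes were given as a group only. Replicate numbers are serial numbers of different animals and were not used to pair pups.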

Additional observations from a re-analysis of the deposited data

Results flagged for a closer look

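Groups of 8 pups were searched for a single value far from the others, for the 7 subunits and the balance of mature and neonatal subunits in both genotypes. In 1 of 16 groups a value stood apart, where chance gives about 1 in 20. This was the mature minus neonatal log2 value of ChR2-flfl replicate 1, whose gap to the next pup was 0.536 of the range of the group, above Dixon's 95% critical ratio. This pup had the lowest Gabra4, Gabrb2 and Gabrd values of all 16 pups and the highest Gabra2 value. Its depth was 48495728 reads and thus like that of most other pups. The genotype difference of the balance was 0.069 with this pup and 0.029 without it.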

How the results depend on the processing

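Across 203 recalculations of the genotype differences, 29 for each of the 7 subunits, none passed an adjusted p of 0.05 (lowest 0.554), and 195 kept their direction. The 8 that turned were Gabra2 with the span slope as covariate (0.040) and in pups 35 to 42 (0.092), Gabra3 in pups 35 to 42 (0.0017), Gabra4 in pups 26 to 33 (-0.017) and without 1 control pup (-0.00015), Gabra5 in pups 26 to 33 (-0.015), and Gabrb2 with the span slope (0.040) and in pups 26 to 33 (0.0055). The span slope also moved Gabra3 to -0.0047, Gabra4 to 0.10, Gabra5 to 0.046, Gabrb1 to -0.039 and Gabrd to 0.10. With single pups left out, log2 differences ranged from -0.065 to -0.0059 for Gabra2, -0.053 to -0.018 for Gabra3, -0.00015 to 0.067 for Gabra4, 0.017 to 0.049 for Gabra5, -0.10 to -0.069 for Gabrb1, -0.037 to -0.0029 for Gabrb2 and 0.097 to 0.18 for Gabrd. The genotype by sex interaction of Gabrb2 turned to 0.0071 with the other source of sex. The causes were not tested. Over all genes, 2 had an adjusted p under 0.05, and 1 with the span slope, with the replicate block, in either run, and 1 to 2 with single pups left out, whereas 3 did with the run of pup numbers as a covariate. Pups 26 to 33 alone gave 672 genes at an unadjusted p under 0.05 in place of 1145.

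The replicate numbers did not pair the pups (correlations of same-numbered pups from -0.344 to 0.389, above 0.1 in 3 of 8 pairs, own number best in 1 of 8). With the replicate block the Gabrb1 difference remained -0.087 (limma unadjusted p = 0.0294), and the block changed no call of a subunit. The planned edgeR test on recovered reads was not run. The covariate for the run of pup numbers and the alternatives for the relation of Gabra2 and Gabrb1 were chosen after seeing the data, and that r stayed between 0.907 and 0.951 with single pups left out.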
